A study of Mus musculus with 6 samples.

Results

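Hypoxia-inducible factor (HIF) signalling was examined through 10 genes in M2 macrophages (Mφs): the factor subunits Hif1a, Epas1 and Arnt, the degradation factor Vhl, the oxygen-sensing hydroxylases Egln1, Egln2, Egln3 and Hif1an, and the hypoxia targets Vegfa and Bnip3. They were taken by gene symbol from a table of 41549 genes, and each of the 10 symbols matched 1 gene. Messenger RNA had been sequenced in 6 libraries of wild-type mouse bone marrow-derived Mφs, cells grown from marrow precursors with macrophage colony-stimulating factor. Naïve Mφs had been transfected with a control antisense oligonucleotide (Ctr, 3 libraries) or with an antisense against 5′tRF-Glu(CTC), a piece of a glutamate tRNA that begins at its 5′ end (αGlu, 3 libraries). IL-4 and IL-13 had then been given to all 6 to drive M2, anti-inflammatory polarization. The marrow came from adult C57Bl/6 N mice per the study's methods, and the labels give neither age nor sex. The study describes its replicates as independent experiments, with another animal for each preparation of primary cells, and the labels do not name the animals. The question of the comparison was how blocking the fragment changes the transcriptome of M2 Mφs.

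HIF is a pair of proteins, an oxygen-regulated α subunit (HIF-1α from Hif1a or HIF-2α from Epas1) and a constant partner, ARNT. With oxygen present, prolyl hydroxylases (PHD2 from Egln1, PHD1 from Egln2 and PHD3 from Egln3) modify the α subunit, the VHL protein binds the modified form and the α subunit is degraded, while FIH (from Hif1an) blocks its transactivation domain. When the α subunit is stable, the pair binds DNA at a short core motif and raises transcription of genes such as Vegfa and Bnip3, and in most cell types of Egln1 and Egln3 themselves. In Mφs, Hif1a transcription is also raised by inflammatory signals through NF-κB, and HIF-1α is linked to inflammatory and HIF-2α to alternative activation. The libraries measure transcripts, so neither α subunit protein nor hydroxylation was measured.

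The antisense is shown because it defines the αGlu group. The target is printed as the study lists it for the inhibitor, and the fragments it reports in islet cells are longer. In the printed target, capitals mark bases 2 to 21, which are complementary to the antisense. The fragment itself was not measured in these libraries, so its reduction could not be checked in any of them.
Antisense oligonucleotide: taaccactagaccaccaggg
Target fragment: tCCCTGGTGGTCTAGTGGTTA

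Promoter stretches are shown for 4 of the 6 members that were higher in αGlu 2 and αGlu 3 than in Ctr, Hif1a, Egln1, Egln3 and Bnip3. The others, Arnt and Vegfa, are not printed, and their matches are given below. Egln2, a hydroxylase whose CPM stayed level, is also shown. The core motif of HIF was searched as ACGTG or GCGTG on both strands (CACGT or CACGC on the strand printed), and matches are in capitals. A CACGTG holds overlapping matches of both strands, and the same letters are the core of the E-box motif of other factors. The sequences are from RefSeq (GRCm38.p6), which held 11 promoters of 9 members in the table used. The window was 250 bases before the RefSeq start, and bases after a GENCODE transcript start inside that window were not printed. The Hif1a stretch lies within the gene, after its first GENCODE start, and holds no exonic base.
Hif1a, chr12:73907617-73907866, plus strand: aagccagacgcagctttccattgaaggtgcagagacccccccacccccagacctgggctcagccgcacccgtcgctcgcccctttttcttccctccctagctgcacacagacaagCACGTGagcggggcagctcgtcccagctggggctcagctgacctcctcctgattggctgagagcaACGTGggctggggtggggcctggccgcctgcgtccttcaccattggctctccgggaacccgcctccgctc
Egln1, chr8:124949325-124949504, minus strand: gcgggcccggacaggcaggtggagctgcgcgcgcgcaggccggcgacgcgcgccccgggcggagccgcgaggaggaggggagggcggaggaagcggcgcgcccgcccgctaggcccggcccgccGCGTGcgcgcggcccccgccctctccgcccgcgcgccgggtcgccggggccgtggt
Egln3, chr12:54203875-54204124, minus strand: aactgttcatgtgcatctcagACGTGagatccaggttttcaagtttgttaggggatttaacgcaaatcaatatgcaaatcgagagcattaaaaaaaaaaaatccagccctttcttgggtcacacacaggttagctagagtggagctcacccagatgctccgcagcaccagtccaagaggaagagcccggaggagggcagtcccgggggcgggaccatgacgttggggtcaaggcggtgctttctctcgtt
Bnip3, chr7:138909520-138909756, minus strand: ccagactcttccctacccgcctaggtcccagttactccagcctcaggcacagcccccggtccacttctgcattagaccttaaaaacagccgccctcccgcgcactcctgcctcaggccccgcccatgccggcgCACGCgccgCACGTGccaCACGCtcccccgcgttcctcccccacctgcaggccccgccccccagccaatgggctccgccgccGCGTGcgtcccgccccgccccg
Egln2, chr7:27166803-27167052, minus strand: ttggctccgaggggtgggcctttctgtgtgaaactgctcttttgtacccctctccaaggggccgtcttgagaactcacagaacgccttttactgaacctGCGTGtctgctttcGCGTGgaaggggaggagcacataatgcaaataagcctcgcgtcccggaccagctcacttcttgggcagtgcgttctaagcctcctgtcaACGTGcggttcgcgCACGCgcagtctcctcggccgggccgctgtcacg

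Of the 11 member promoters, 8 held at least 1 match, against 38.6% of 32851 RefSeq promoters and 55.5% of the 11987 promoters of genes tested here. Counted by gene, 7 of the 9 members with an entry had a match. In the Bnip3 window 5 matches began 117, 108, 107, 99 and 35 bases before the start. The Hif1a window held matches at 135, 134 and 70 bases, and the Egln3 window 1 match at 229 bases. Egln1 had matches at 126 and 68 bases, of which the first is printed. The Egln2 window held 4 matches, at 151, 137, 48 and 34 bases, while its transcript level differed little between the groups (below). The Arnt window, not printed, held 1 match at 29 bases. The upstream Vegfa promoter, also not printed, held none of these letters in the window. Another Vegfa entry lies within the gene, with 218 of its 250 bases exonic, and held 2 matches, at 218 and 211 bases. Another Egln2 entry held 1 match, at 116 bases. A match is a description of the letters and not a binding site.

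The depth ranged from 17912831 to 30386653 reads per library. Floors of 3 reads, the level that a count of 0 allows, lay between 0.0944 and 0.172 CPM (reads scaled to the library size after trimmed mean of M-values, TMM, normalization). αGlu 1 stood apart from αGlu 2 and αGlu 3: across the genes tested, its log2 CPM gave a Pearson r of 0.929 with both and of 0.966 to 0.982 with the Ctr libraries, a description over genes that share a library. The members' results are therefore also given without αGlu 1, a choice made after its values were seen. Errors, adjusted p-values and calls without αGlu 1 depend on that choice and are given as a description. All 10 Mφ markers were above 1 CPM, with a summed level of 12879 to 14592 CPM in Ctr and 13660 to 21354 CPM in αGlu. Lyz2 was the largest part of that sum. In αGlu 2 and αGlu 3, Cd68, Spi1 and Mertk lay below every Ctr library and the other Mφ markers above. Dendritic cell markers summed to 20.3 to 24.5 CPM in Ctr and 6.09 to 16 CPM in αGlu (1 of 7 above 1 CPM, Xcr1 at 0 reads), fibroblast markers to 2.01 to 7.95 and 2.14 to 3.15 CPM (0 of 7) and lymphocyte markers to 0.0836 to 0.186 and 0.172 to 0.346 CPM (0 of 7, Nkg7 at 0 reads). Neutrophil markers summed to 107 to 160 CPM in Ctr and 186 to 609 CPM in αGlu, nearly all from Csf3r, which monocytes also express, while 3 of 10 were above 1 CPM and Ly6g and Retnlg had 0 reads. In bulk RNA, fewer expressing cells and less RNA per cell cannot be told apart.

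Among the α subunits, Hif1a was higher and Epas1 lower in αGlu 2 and αGlu 3, and in αGlu 1 both lay at or near the Ctr level. Hif1a (chromosome 12, 73901375 to 73947530, plus strand, GRCm38) was at 87.7, 82.8 and 84.7 CPM in Ctr 1, 2 and 3, against 94.6, 437 and 442 CPM in αGlu 1, 2 and 3. All 3 αGlu libraries were above all 3 Ctr libraries, αGlu 1 by little (1.11 times the Ctr mean) and the other two by far (5.14 and 5.19 times). The group levels were 85.1 ± 2.48 CPM in Ctr and 324 ± 199 CPM in αGlu (SD, n = 3). Over all 6 libraries the log2 fold change was 1.93 ± 0.56 (SE, n = 3 per group), with an adjusted p of 0.159 in edgeR's quasi-likelihood test (Benjamini-Hochberg over all genes tested, as for every adjusted p below). The fold change was past the 2-fold limit and the adjusted p was not past 0.1. Without αGlu 1 the log2 fold change was 2.36 ± 0.08 and Hif1a was called (edgeR adjusted p = 1.58e-05). Of the genes that share exonic bases with Hif1a, Gm15283 had 2 reads over all libraries and Gm49321 was not analysed here.

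Epas1 (chromosome 17, 86753700 to 86833410, plus strand) was at 14.2, 10.6 and 7.05 CPM in Ctr, against 10.8, 2.17 and 1.83 CPM in αGlu. αGlu 1 lay inside the Ctr range, while αGlu 2 and αGlu 3 lay below every Ctr library at 0.205 and 0.173 times the Ctr mean. These levels rest on 152 to 313 reads in Ctr, 189 in αGlu 1, and 69 and 50 in αGlu 2 and αGlu 3. The log2 fold change was −1.13 ± 0.73 over all libraries (edgeR adjusted p = 0.351) and −2.40 ± 0.33 without αGlu 1 (edgeR adjusted p = 0.00221), where Epas1 was called lower. It was smaller without αGlu 2 (−0.76) or αGlu 3 (−0.73), and neither passed the test. Epas1 is also strongly expressed by endothelium, and the summed endothelial markers moved the same way, from 129 to 186 CPM in Ctr and 152 in αGlu 1 to 76.4 and 80.3 CPM in αGlu 2 and αGlu 3. Of these 8 markers only Vwf, Kdr and Pecam1 were above 1 CPM on average. The lower sum came mostly from Vwf (168, 102 and 81.1 CPM in Ctr, 93.7, 30.3 and 23.8 CPM in αGlu). Kdr in αGlu 2 and αGlu 3 (29.2 and 30.5 CPM) lay within the Ctr range (14.5 to 44.6 CPM). Pecam1 went the other way (3.27, 3.43, 3.39, 2.41, 16.3 and 25.7 CPM). The defining markers Cdh5, Tie1, Tek, Emcn and Erg were all below 0.5 CPM in every library, and the part of endothelial RNA in the Epas1 values was not tested.

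Arnt (chromosome 3, 95434388 to 95497240, plus strand), the constant partner, differed by little but evenly. It was at 57.0, 57.1 and 56.2 CPM in Ctr, against 63.5, 68.9 and 70.1 CPM in αGlu, so that the groups did not overlap. The log2 fold change of 0.25 ± 0.07 was over 3 times its error, with an edgeR adjusted p of 0.157 over all libraries. Without αGlu 1 it was 0.29 ± 0.06 (edgeR adjusted p = 0.0147), which passed the p threshold and stayed under the 2-fold limit.

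Vhl (chromosome 6, 113623959 to 113631633, plus strand), the recognition subunit of the ligase that removes hydroxylated α subunits, was at 26.1, 26.1 and 32.1 CPM in Ctr and 29.1, 28.3 and 27.03 CPM in αGlu. Every αGlu value lay within the Ctr range. The log2 fold change was 0.00 ± 0.11 (edgeR adjusted p = 0.993), and −0.03 ± 0.11 without αGlu 1. With this error a small difference in either direction could not be told from none.

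**Figure D1:**
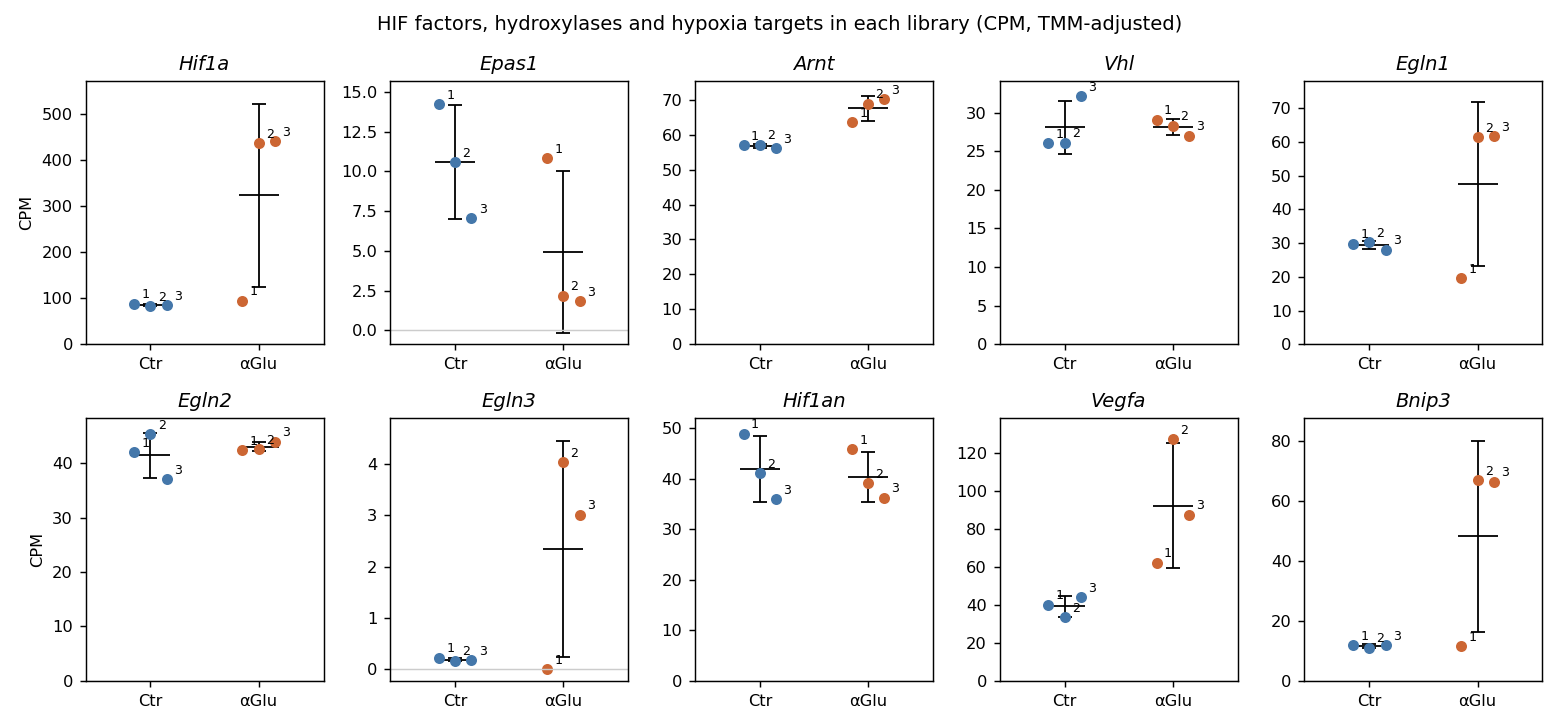
TMM-adjusted CPM (vertical axes, linear, a scale of its own for each gene) of the 10 genes in each of the 3 Ctr (blue) and 3 αGlu (orange) libraries, with the replicate number beside each point and bars for the mean ± SD. For Hif1a, Egln1, Egln3 and Bnip3, αGlu 2 and αGlu 3 lie far above the Ctr libraries while αGlu 1 lies at, near or below them, and for Vhl, Egln2 and Hif1an the groups overlap.

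The 4 hydroxylases did not move together. Egln1 and Egln3, which encode PHD2 and PHD3, were higher in αGlu 2 and αGlu 3 and not in αGlu 1, whereas Egln2 and Hif1an overlapped between the groups. Egln1 (chromosome 8, 124908587 to 124949324, minus strand) was at 29.8, 30.2 and 28.0 CPM in Ctr, against 19.6, 61.4 and 61.7 CPM in αGlu. αGlu 1 was thus at 0.666 times the Ctr mean, and αGlu 2 and αGlu 3 at 2.09 and 2.10 times. With libraries on both sides of Ctr, the log2 fold change over all 6 was 0.70 ± 0.42 (edgeR adjusted p = 0.321). It was 1.06 ± 0.07 without αGlu 1 (edgeR adjusted p = 0.000127), just past the 2-fold limit.

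Egln3 (chromosome 12, 54178981 to 54203860, minus strand) was scarcely transcribed in Ctr. It had 5, 4 and 4 reads in Ctr and 0, 128 and 82 reads in αGlu, which is 0.227, 0.167 and 0.186 CPM against 0, 4.03 and 3.01 CPM. The count of 0 in αGlu 1 allows up to 0.172 CPM, which is about the Ctr level, so a fall in that library was not detectable at this depth. With all 6 libraries the low-count filter removed Egln3, and without the filter its log2 fold change was 3.60 ± 1.27 (edgeR adjusted p = 0.206). With αGlu 1 left out it entered the test only through the 2 libraries in which it was high, so its call there (log2 fold change 4.15 ± 0.32, edgeR adjusted p = 0.000255) is given as a value. Those 210 reads against 13 in Ctr gave a CPM ratio of 18.5 (exact 95% interval 10.6 to 35.3, for counting error only).

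Egln2 (chromosome 7, 27158658 to 27166802, minus strand) was at 42.0, 45.3 and 37.0 CPM in Ctr and 42.4, 42.6 and 43.9 CPM in αGlu, with a log2 fold change of 0.05 ± 0.09 (edgeR adjusted p = 0.727) and 0.06 ± 0.10 without αGlu 1. Hif1an (chromosome 19, 44562850 to 44576274, plus strand), whose product acts on an asparagine of the α subunit, was at 49.0, 41.1 and 36.0 CPM in Ctr and 45.9, 39.2 and 36.3 CPM in αGlu, with a log2 fold change of −0.06 ± 0.15 (edgeR adjusted p = 0.819) and −0.16 ± 0.13 without αGlu 1. For both genes all αGlu libraries, αGlu 2 and αGlu 3 included, lay inside the Ctr range. The transcript ratio of Egln1 to Egln2 therefore differed between libraries, which was not tested. On the deposited TPM scale, which accounts for length, this ratio was 0.554, 0.520 and 0.590 in Ctr and 0.359, 1.12 and 1.10 in αGlu. No Ctr library had more Egln1 than Egln2 per length, and αGlu 2 and αGlu 3 both did.

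**Figure D2:**
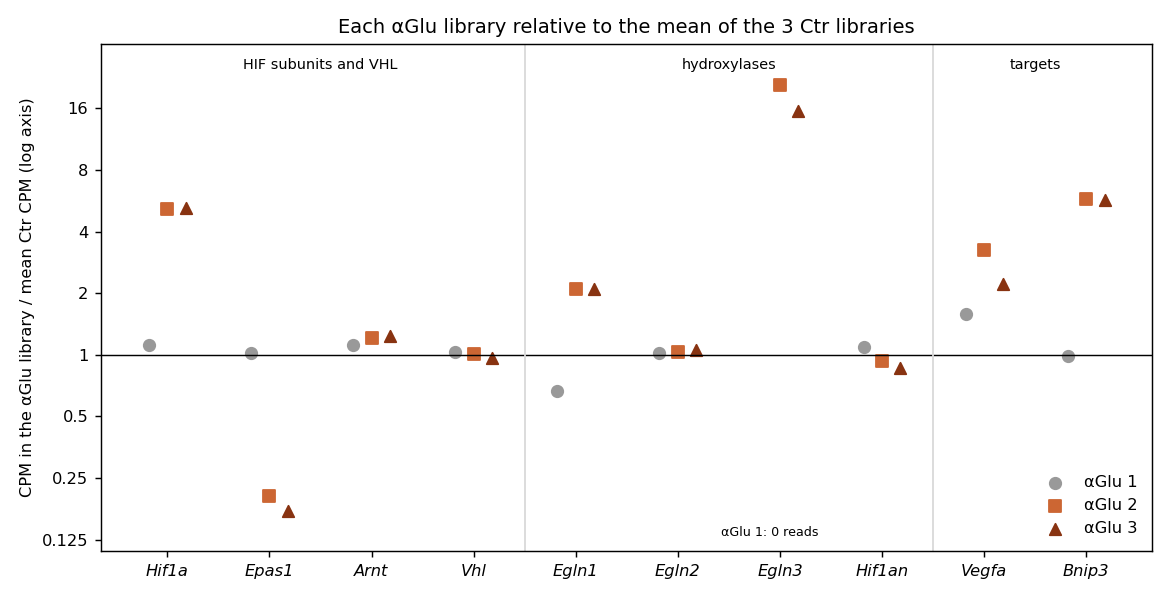
CPM of each αGlu library divided by the mean CPM of the 3 Ctr libraries (vertical axis, log scale, 1 is the Ctr mean) for the 10 genes grouped by role. αGlu 2 (squares) and αGlu 3 (triangles) lie together and away from 1 for Hif1a, Epas1, Egln1, Egln3 and Bnip3, from 0.173 for Epas1 to 20.8 for Egln3, and αGlu 1 (circles) ranges from 0.666 for Egln1 to 1.58 for Vegfa, with Egln3 at 0 reads.

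Both target genes were higher in αGlu, Vegfa in every library and Bnip3 in αGlu 2 and αGlu 3. Vegfa (chromosome 17, 46016993 to 46032369, minus strand), the main angiogenic growth factor, was at 40.2, 33.4 and 44.2 CPM in Ctr, against 62.2, 127 and 87.4 CPM in αGlu. It was the member in which αGlu 1 was farthest above Ctr, at 1.58 times the Ctr mean, with 3.24 and 2.23 times in αGlu 2 and αGlu 3. Its log2 fold change was 1.23 ± 0.27, 4 times its error, with an edgeR adjusted p of 0.155. Without αGlu 1 it was 1.45 ± 0.18 (edgeR adjusted p = 0.00161).

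Bnip3 (chromosome 7, 138890836 to 138909519, minus strand), a mitochondrial receptor for mitophagy and a member of the BCL2 family, was at 11.9, 11.03 and 11.9 CPM in Ctr, against 11.5, 67.0 and 66.5 CPM in αGlu. αGlu 1 was inside the narrow Ctr range, and αGlu 2 and αGlu 3 were at 5.76 and 5.72 times the Ctr mean. The log2 fold change was 2.06 ± 0.63 (edgeR adjusted p = 0.1603) and 2.52 ± 0.07 without αGlu 1 (edgeR adjusted p = 9.96e-06). The antisense gene that shares 504 exonic bases with Bnip3 had 0 reads.

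Counted over the members, 9 of 10 passed the low-count filter and 0 were called in the quasi-likelihood test at an adjusted p under 0.1 and a change over 2-fold, against 0.0% of the 11933 genes tested. At an unadjusted p under 0.05, 4 of the 9 passed (Hif1a, Arnt, Vegfa and Bnip3) against 24.7% of all genes. limma-voom also called 0 members, against 0.0% of genes, and 4 of the 9 passed its unadjusted p under 0.05, Hif1a, Arnt and Vegfa higher and Epas1 lower, against 26% of genes, 11% higher and 15% lower. edgeR with the replicate number as a block called 0, against 0.142%. DESeq2 called 4 of 10, Hif1a (adjusted p = 0.00753), Egln3 (0.0622), Vegfa (0.00183) and Bnip3 (0.0117), all higher in αGlu, against 8.13% of genes in either direction and 4.21% in that direction (3.92% lower). Of these, Egln3 is the member that failed the low-count filter of edgeR. Nearly all its reads lay in αGlu 2 and αGlu 3 (210, against 13 in Ctr). In 3 of 10 the groups did not overlap, Hif1a, Arnt and Vegfa, against 30.2% of genes (14.2% higher, 15.9% lower), so that this share was near the background.

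Leaving out αGlu 1 changed these counts most. edgeR then called 6 of 10 members, of which 5 were higher (Hif1a, Egln1, Egln3, Vegfa and Bnip3) and 1 lower (Epas1), against 18.6% of genes, 8.05% higher and 10.5% lower. Of the 9 that passed the filter with all libraries, 5 were called. Ctr did not overlap with αGlu 2 and αGlu 3 in 7 of 10 members, against 65.8% of genes (33.6% higher, 32.2% lower), again near the background. Only 2 αGlu libraries stand behind these values.

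**Figure D3:**
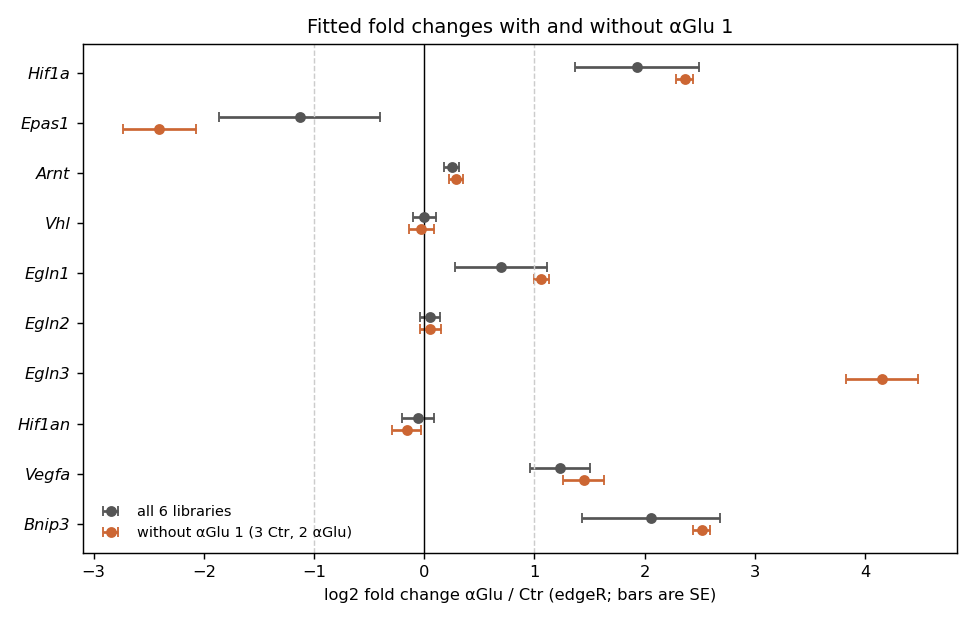
Log2 fold change of αGlu over Ctr ± SE from edgeR for the 10 genes (horizontal axis, dashed lines at a 2-fold change), with all 6 libraries in grey and without αGlu 1 in orange; Egln3 has a value only without αGlu 1. The errors of Hif1a, Egln1 and Bnip3 are several times smaller without αGlu 1 (0.08, 0.07 and 0.07 against 0.56, 0.42 and 0.63), and Epas1 moves from −1.13 to −2.40.

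Levels were compared between genes on the TPM scale. In Ctr, Egln2 (39.5 to 48.2 TPM) and Hif1a (41.8 to 45.8 TPM) were the most abundant of the 10, and their ranges overlapped. Vhl (25.97 to 32.04 TPM), Vegfa (23.2 to 30.9 TPM) and Egln1 (23.3 to 25.6 TPM) followed, each overlapping its neighbour. Arnt (20.98 to 21.9 TPM) lay below Egln1 and overlapped with Hif1an (16.3 to 22.8 TPM). Bnip3 (14.5 to 16.2 TPM), Epas1 (3.77 to 7.83 TPM) and Egln3 (0.187 to 0.263 TPM) came last, each apart from its neighbours, Bnip3 and Hif1an by little. In αGlu 1, Hif1a (49.8 TPM), Egln2 (47.0 TPM) and Vegfa (45.0 TPM) were at the head, Vegfa ahead of Vhl (30.1 TPM), and Egln3 (0 TPM) was at the end. In αGlu 2 and αGlu 3, Hif1a was at 237 and 246 TPM, Bnip3 at 94.7 and 96.5 TPM and Vegfa at 95.1 and 67.0 TPM. Bnip3, the eighth in Ctr, thus came next after Hif1a in αGlu 3 and just behind Vegfa in αGlu 2, and Egln3 (4.85 and 3.71 TPM) was above Epas1 (1.24 and 1.08 TPM).

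The subunit ratio followed from these levels. Hif1a exceeded Epas1 by 5.85, 7.42 and 11.4 times in Ctr, by 8.27 times in αGlu 1, and by 191 and 228 times in αGlu 2 and αGlu 3 on the TPM scale. Against its partner Arnt, Hif1a stood at 2.09, 1.97 and 2.05 in Ctr, at 2.02 in αGlu 1 and at 8.62 and 8.55 in αGlu 2 and αGlu 3. In both ratios αGlu 1 lay within the Ctr range.

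Around the members, 6 lists of further genes of the pathway (122 genes) were described, with no set test. Of the 108 tested, edgeR called 0 over all 6 libraries and 35 had an unadjusted p under 0.05 (32.4%, against 24.7% of genes). DESeq2, which tested 116 of them, called 14, against 8.13% of genes. The medians of the first 2 lists and of the VEGF family lie near 0 and changed sign with a library left out. Across all tested genes the median log2 fold change was 0.02. In the 11 tested partners and relatives of HIF the median was 0.05, with no overlap in 0 higher and 3 lower genes (27.3%, against 30.2% of all genes). DESeq2 tested 12 and called 0 higher and 1 lower, Cited4, against 4.21% and 3.92% of genes. Without αGlu 1 edgeR tested 12 and called 0 higher and 3 lower (25%, against 18.6% of genes). All 3, Arnt2, Npas2 and Cited4 (62 reads in Ctr, 6 in αGlu), entered that test only through Ctr libraries, where they were high. Their calls are thus no separate support. Bhlhe40, a transcriptional repressor, was at 350.5, 349.8 and 306 CPM in Ctr and 243, 209 and 169 CPM in αGlu (log2 fold change −0.70 ± 0.16, edgeR adjusted p = 0.156). Hif3a, the third α subunit, had 0 reads in Ctr and 4 in αGlu and was not tested. Arnt2, outside the rule for naming and chosen after its values were seen, went from 2.46 to 3.68 CPM in Ctr to 1.84, 0.283 and 0.147 CPM in αGlu.

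The list of degradation and stability genes, which holds the other subunits of the VHL ligase, gave −0.02 as the median of 17 genes on the log2 scale. The groups did not overlap in 2 higher and 4 lower genes (35.3%, against 30.2% of all genes, 14.2% higher and 15.9% lower). Differences were small: Rbx1, the ring subunit, had a log2 fold change of 0.33 ± 0.07 and Elob, elongin B, of 0.18 ± 0.09. Stub1, a chaperone-linked ubiquitin ligase, had −0.20 ± 0.06 and the chaperone Hsp90aa1 −0.22 ± 0.10. edgeR adjusted p-values were 0.156, 0.256, 0.160 and 0.231 in that order. None of the 17 was called by DESeq2 or without αGlu 1.

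Among HIF targets, glycolytic genes had the highest median of the lists, 0.62 over 21 genes, though in only 5 the groups did not overlap (3 higher, 2 lower, 23.8%, against 30.2% of all genes). DESeq2 called 4 of them higher and 0 lower, against 4.21% and 3.92% of genes. Without αGlu 1 edgeR called 9 higher and 1 lower (47.6%, against 18.6% of genes), with a median of 0.57, and the median was 0.41 without αGlu 2. Pfkfb3, which makes the activator of phosphofructokinase, was at 54.3, 64.2 and 60.7 CPM in Ctr and 66.5, 207 and 161 CPM in αGlu (log2 fold change 1.28 ± 0.40, edgeR adjusted p = 0.161). Hk1, a hexokinase, had a log2 fold change of 0.40 ± 0.12. Pfkp and Pfkfb4 went the other way, with −0.74 ± 0.24 and −0.59 ± 0.17, so that isoenzymes of the same step differed in sign. Without αGlu 1 Pfkfb3 (1.62) and Pfkp (−1.03) were called, and Hk1 (0.51) and Pfkfb4 (−0.81) stayed under the 2-fold limit. Chosen after their values were seen, the liver-type phosphofructokinase Pfkl was at 20.7, 18.4 and 20.2 CPM in Ctr and 20.6, 203 and 193 CPM in αGlu, and the lactate exporter Slc16a3 at 10.9, 12.8 and 11.5 against 9.69, 163 and 145 CPM. αGlu 1 lay within the Ctr range for Pfkl and just below it for Slc16a3.

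The 32 tested non-glycolytic targets gave 0.27 as their median log2 fold change and had both signs among them. The groups did not overlap in 4 higher and 8 lower genes (37.5%, against 30.2% of all genes, 14.2% higher and 15.9% lower). DESeq2, which tested 38, called 5 higher and 1 lower, against 4.21% and 3.92% of genes. Without αGlu 1 edgeR tested 33 and called 11 higher and 8 lower (57.6%, against 18.6% of genes, 8.05% higher and 10.5% lower), with a median of 0.39. One of the 11, Ddit4 (19 reads in Ctr, 201 in αGlu), entered that test only through the libraries in which it was high. Among the 8 lower, Angptl4 (0.157 and 0.073 CPM in αGlu 2 and αGlu 3) and Ppp1r3c (0 and 0.037 CPM) entered only through Ctr, where they were high. P4ha1, a collagen prolyl hydroxylase subunit, was at 67.8, 80.4 and 85.6 CPM in Ctr and 88.4, 163 and 158 CPM in αGlu (log2 fold change 0.81 ± 0.25, edgeR adjusted p = 0.161), and Narf had 0.86 ± 0.25. Tfrc, the transferrin receptor, was at 1084, 748 and 661 CPM in Ctr and 576, 216 and 344 CPM in αGlu (−1.14 ± 0.39, edgeR adjusted p = 0.174), and Ndrg1 had −0.93 ± 0.33. Without αGlu 1 these were 1.04 for P4ha1, 1.10 for Narf, −1.58 for Tfrc and −1.38 for Ndrg1, and all 4 were called. Known targets of HIF were thus found on both sides. Among genes chosen after their values were seen, the inducible nitric oxide synthase Nos2 was at 5.68, 10.99 and 6.73 CPM in Ctr and 10.7, 531 and 245 CPM in αGlu, whereas the lipid droplet protein Plin2 was at 1048, 1358 and 1241 against 1249, 196 and 178 CPM. Bnip3l, the paralogue of Bnip3, was at 247, 243 and 213 CPM in Ctr and 193, 206 and 170 CPM in αGlu, below Ctr in all 3.

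**Figure D4:**
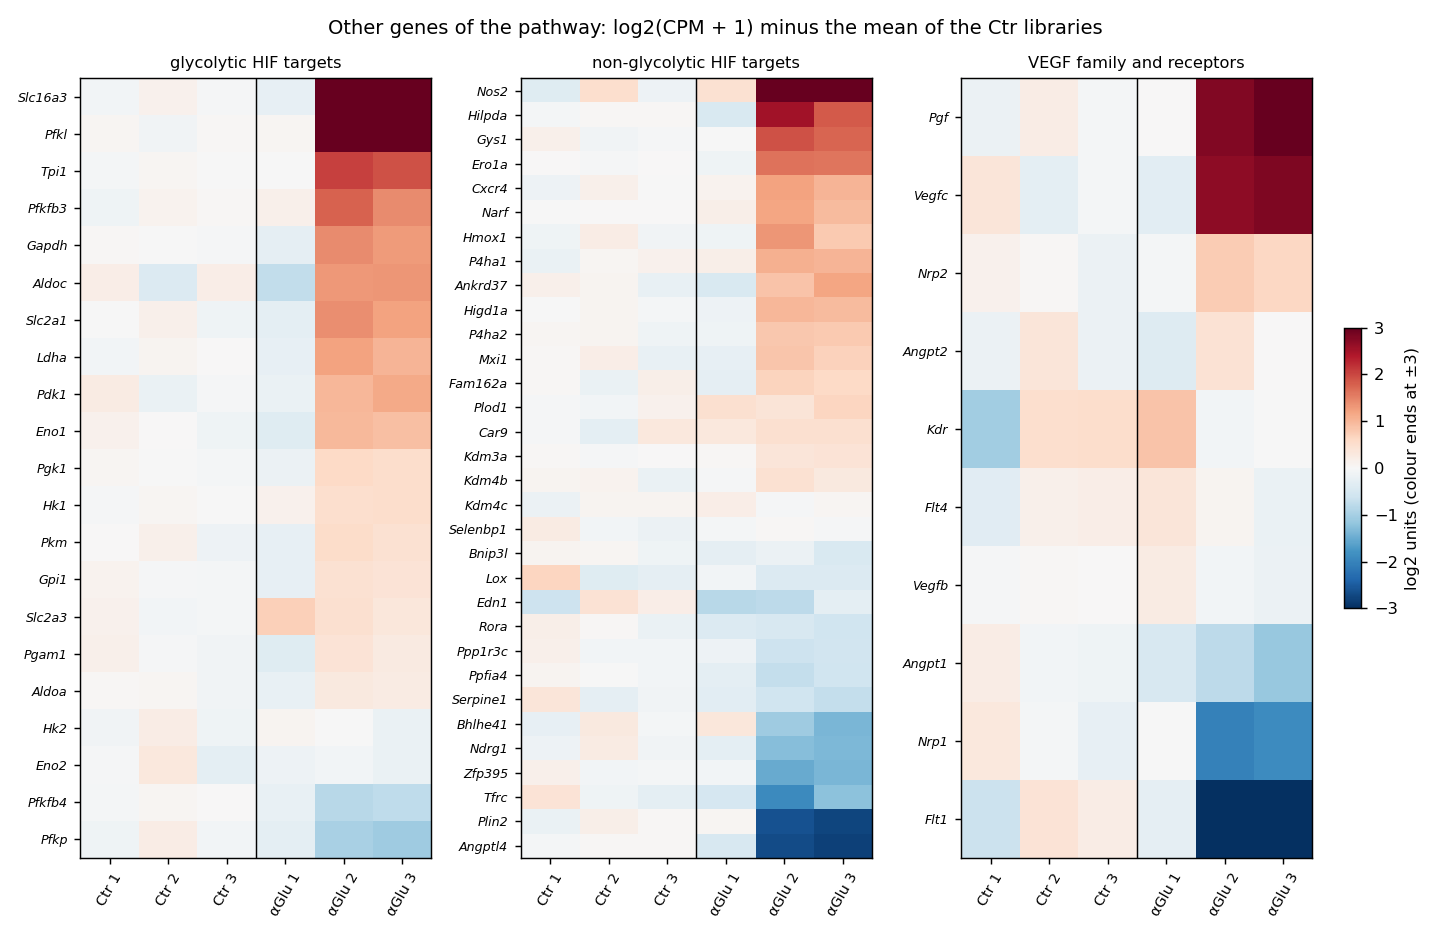
Log2(CPM + 1) of each library minus the mean of the Ctr libraries (colour, red higher and blue lower, saturated at ±3) for the tested glycolytic targets, non-glycolytic targets and VEGF family genes, sorted by the mean of αGlu 2 and αGlu 3. The column of αGlu 1 is pale beside those of αGlu 2 and αGlu 3, which resemble each other, and both signs occur in each list.

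In the VEGF family and its receptors the median log2 fold change was 0.11 over 10 tested genes, and in 1 the groups did not overlap (10%, against 30.2% of all genes). DESeq2, which tested 11, called 2 higher and 1 lower, against 4.21% and 3.92% of genes. Without αGlu 1 edgeR tested 11 and called 3 higher and 3 lower (54.5%, against 18.6% of genes). Among the higher, Vegfd (3 reads in Ctr, 42 in αGlu) and Pgf (23 and 587 reads) entered that test only through the libraries in which they were high. Among the lower, Angpt1 (0.315 and 0.037 CPM in αGlu 2 and αGlu 3) entered only through Ctr, where it was high. No gene met the rule for naming. The values of the following were chosen after they were seen. The ligands Vegfc (0.954, 0.251 and 0.464 CPM in Ctr, 0.229, 8.81 and 9.61 CPM in αGlu) and Pgf (0.182, 0.543 and 0.278 against 0.344, 8.06 and 11.9 CPM) were higher in αGlu 2 and αGlu 3, as Vegfa was, and Vegfb (15.3, 15.9 and 15.7 against 18.6, 14.8 and 13.6 CPM) was not. The receptor Flt1 was at 62.5, 130 and 115 CPM in Ctr and 80.4, 6.55 and 6.09 CPM in αGlu, and the co-receptor Nrp1 at 280.2, 216 and 192 against 226, 54.8 and 60.5 CPM. The co-receptor Nrp2 was higher in αGlu 2 and αGlu 3 (545, 511 and 443 CPM in Ctr, 478, 844 and 768 CPM in αGlu), and Kdr lay within the Ctr range there, so that neither ligands nor receptors shared 1 direction. αGlu 1 lay within the Ctr range for Pgf, Flt1 and Nrp1.

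For mitophagy genes other than Bnip3 the median was −0.13 on the log2 scale over 17 tested. The groups did not overlap in 1 higher and 6 lower genes (41.2%, against 30.2% of all genes, 14.2% higher and 15.9% lower). The median was −0.14 without αGlu 1 and −0.021 without αGlu 3. Gabarapl1, an autophagosome protein, was at 253, 254 and 227 CPM in Ctr and 211, 102 and 90.4 CPM in αGlu (−0.86 ± 0.33, edgeR adjusted p = 0.191). The receptor Optn had −0.43 ± 0.16, and its kinase Tbk1 0.39 ± 0.12. Bnip3 was thus not accompanied by a like difference in this list, of which DESeq2 called 0 genes and edgeR without αGlu 1 called 1 of 17, Gabarapl1 (−1.35), against 18.6% of genes.

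Profiles over the 6 libraries were compared by the root mean square distance of centred log2 CPM among 8687 genes. Nearest to Hif1a was Elk3, an ETS factor, at 0.065 log2 units, then Birc3, an NF-κB-responsive inhibitor of apoptosis, at 0.074. The member Bnip3 was at 0.108 from Hif1a, whereas Egln1 was at 0.589 and Vegfa at 0.568. Elk3 was also nearest to Bnip3 (0.087), followed by Sema4a (0.092). Egln1, with its low value in αGlu 1, was nearest to Impdh1 (0.085) and Emb (0.087), and Vegfa to Sesn2 (0.141) and Slx4ip (0.178). With 2 high libraries of 6, such a distance mostly reflects the contrast of αGlu 2 and αGlu 3 with the rest.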

How the data were processed

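Polyadenylated RNA of 6 libraries was sequenced with a stranded kit, and reads were processed by the authors in the QIAGEN RNA-seq Analysis Portal (aligner and annotation not given in the sources used here, genome build GRCm38 per the labels). The deposited table gives raw exon counts, RPKM and TPM per gene, and a CPM signal column that the authors scaled to an effective library size. RPKM and the deposited CPM were not used for results.

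Total deposited counts were 17912831 to 30386653 per library. Genes were filtered with filterByExpr (minimum count 10, minimum total 15) and tested two-sided with edgeR 4.0.16 (TMM, quasi-likelihood, group as the only term) in R 4.3.3. The Benjamini-Hochberg adjustment ran over 11933 genes, and a call needed an adjusted p under 0.1 and a log2 fold change past 1. log2 CPM had a prior count of 2. Alternatives were DESeq2 1.42.0, limma-voom (limma 3.58.1), other scalings and filters, a replicate block and each library left out. The procedure was also run on simulated counts. No simulated library departed from its group as αGlu 1 did, so that run cannot speak to calls that depend on αGlu 1. Coordinates are from GENCODE M21, promoters from RefSeq.

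Named were all members, the 2 highest and 2 lowest list genes (mean log2 CPM of at least 3, no overlap) and the 2 nearest profiles of each varying member (mean log2 CPM of at least 3, range over 1). Members and lists were chosen with earlier results of these data known. No sample was unassigned.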

Additional observations from a re-analysis of the deposited data

How the results depend on the processing

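Hif1a, Epas1, Arnt, Egln1, Vegfa and Bnip3 kept their direction in all 14 alternative fits. For Egln3 the fit without the low-count filter (3.60) was the reference, and 5 others gave a value of the same direction. These were DESeq2 and the fits without each Ctr library or αGlu 1. In the left-out fits Egln3 passed the filter only through αGlu 2 and αGlu 3, where it was high. Its direction there is thus no separate support. Epas1 was −1.75 with limma-voom. The number of calls did not keep: DESeq2 called 1117 genes, 4 members and 14 list genes, and leaving out αGlu 1 gave 2290, 6 and 39, against 0 of each over all libraries. The cause of the gap between DESeq2 and edgeR was not tested. Leaving out each of the other libraries gave 0 calls, so over the left-out libraries the counts ranged from 0 to 2290 genes, 0 to 6 members and 0 to 39 list genes, and members without overlap from 3 to 7. The replicate numbers are not known to pair the libraries: deviations of same-numbered libraries correlated at 0.076, 0.065 and 0.154, and other pairs at −0.112 to 0.046. With the replicate block 17 genes, 0 members and 0 list genes were called. Every library correlated best with its own number, a hint from the data and not the design.

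Values near 0 changed sign. Over left-out libraries the log2 fold change ranged from −0.026 (without Ctr 3) to 0.12 for Egln2, from −0.16 to 0.077 for Hif1an and from −0.053 to 0.11 for Vhl, and the list medians from −0.020 to 0.038 for degradation genes, −0.094 to 0.15 for partners of HIF and −0.14 to 0.40 for the VEGF family. Hif1an was 0.022 with library size alone, 0.077 without Ctr 1 and 0.020 without αGlu 3. Vhl was −0.0049 with DESeq2, −0.0022 with RLE factors, and −0.040, −0.053 and −0.026 without Ctr 1, Ctr 2 and αGlu 1. List medians became 0.063 (library size alone), 0.00050 (without Ctr 1) and 0.038 (without αGlu 1) for degradation genes, −0.094 (without αGlu 1) for partners of HIF, and −0.068 and −0.14 (without Ctr 1 and αGlu 1) for the VEGF family. With library size alone the median over all genes was 0.10 in place of 0.02. The glycolytic median fell to 0.41 without αGlu 2, the mitophagy median was −0.042 with library size alone and −0.021 without αGlu 3, and the non-glycolytic median was 0.12 without the low-count filter and 0.073 with DESeq2, both of which tested more genes. The VEGF median was 0.0054 with a filter at 1 CPM. Depth limits Egln3, which had 13 reads over the Ctr libraries.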
